A study of Rattus norvegicus with 12 samples.

Results

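Transcripts of 5 protein kinase C (PKC) genes, *Prkca*, *Prkcb*, *Prkcd*, *Prkce* and *Prkcz*, were followed across 4 groups of rat neurons that differ in how they withstand oxidative stress (OS). The members were the probe sets that the array's gene table pairs with these 5 symbols (of 10411 genes named alone by a probe set), which gave 6 of the 15923 probe sets on the array, 2 of them for *Prkcb* and 1 for each of the others. Neurons were lifted by laser capture microdissection (LCM), in which stained cells are cut out of a frozen section, from the brains of untreated 6-month-old rats, Fisher 344/BN F1 hybrids. The samples were hippocampal CA1 and CA3 pyramidal neurons, cerebellar granule (CbG) neurons and neurons of the deep layers of the frontal cortex (CTX). Each sample was hybridized to 1 Affymetrix RAE230A array, so that there were 12 arrays with 3 biological replicates per region. Arrays with the same replicate number were taken here as 1 rat, since the study used paired tests. The labels do not state this pairing. CA1 and CbG form the vulnerable group (VUL, 6 arrays) and CA3 and CTX the resistant group (RES, 6 arrays), names that rest on other cultures and slices under OS and not on the captured cells, none of which had been stressed. Values are MAS5 signals, linear hybridization intensities that the authors scaled to a common level per array. With captured cells, a lower signal from fewer cells of a type and from less RNA per cell cannot be told apart.

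PKC enzymes are serine and threonine kinases that carry signals from membrane lipids. Receptors coupled to Gq proteins activate phospholipase C, which splits a membrane lipid into diacylglycerol and inositol trisphosphate (IP3). The conventional isoforms, among them PKC alpha (*Prkca*) and PKC beta (*Prkcb*), need both diacylglycerol and calcium. PKC delta (*Prkcd*) and PKC epsilon (*Prkce*) respond to diacylglycerol without calcium, and the atypical PKC zeta (*Prkcz*) needs neither. In neurons the family is known for its part in synaptic plasticity, in transmitter release and in the control of cell death and survival.

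The 3 genes whose signals moved most closely together or in opposite directions over the 12 arrays were *Prkca*, *Prkce* and *Prkcd*, and for that reason the 250 bases before the start that the RefSeq promoter table takes for each are printed, 5′ to 3′ on the gene's strand, on build GRCr8. Those starts lie 290 (*Prkca*), 283 (*Prkcd*) and 643 bases (*Prkce*) inside the outermost annotated end of the gene, so the windows fall within the annotated genes, and which transcript each start belongs to was not analysed here. All 3 genes lie on the minus strand. Capitals mark letters of the motifs searched on both strands, namely the GC box GGGCGG (or its complement CCGCCC), the TATA box TATAAA, the E box CACCTG, the CCAAT box and the cAMP response element TGACGTCA, the last 2 of which matched in none of the 3 windows (34.0% and 1.59% of all windows hold them).
*Prkca*, chr10:93787328-93787577: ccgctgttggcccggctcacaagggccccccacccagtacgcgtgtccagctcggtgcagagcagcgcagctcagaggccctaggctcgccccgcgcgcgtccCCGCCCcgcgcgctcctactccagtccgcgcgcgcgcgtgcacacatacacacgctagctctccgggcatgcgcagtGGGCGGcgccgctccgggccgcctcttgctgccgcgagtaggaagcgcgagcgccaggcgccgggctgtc
*Prkcd*, chr16:5805840-5806089: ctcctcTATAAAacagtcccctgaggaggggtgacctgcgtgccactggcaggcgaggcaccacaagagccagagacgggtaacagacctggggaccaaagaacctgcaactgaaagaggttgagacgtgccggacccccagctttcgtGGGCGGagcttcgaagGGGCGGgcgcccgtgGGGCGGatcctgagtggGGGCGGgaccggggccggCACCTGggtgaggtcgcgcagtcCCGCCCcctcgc
*Prkce*, chr6:14204289-14204538: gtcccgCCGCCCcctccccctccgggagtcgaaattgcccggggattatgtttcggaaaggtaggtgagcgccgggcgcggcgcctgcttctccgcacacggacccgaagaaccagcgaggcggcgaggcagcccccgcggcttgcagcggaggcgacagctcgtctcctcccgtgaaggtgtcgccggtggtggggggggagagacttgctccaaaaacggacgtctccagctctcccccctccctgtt
The windows of *Prkca*, *Prkcd* and *Prkce* hold 2, 5 and 1 GC boxes, a motif found in 30.5% of all 33469 such rat windows. The *Prkcd* window alone of the 3 holds a TATA box (12.9% of all windows) and an E box (15.9%). Their shares of G and C were 74.8%, 67.6% and 68.8%, against a median of 51.2% over all windows. These matches describe the letters of the windows and were not measured as binding. Promoters were matched for 4 of the 5 genes, and that of *Prkcz* is not printed.

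Before the values, 2 arrays need to be named, because known markers of the cells go against their labels. *Gabra6*, a GABA receptor subunit of CbG neurons, had a signal of 2567.6 in the array labelled CA3 replicate 3 but 5.6 and 38.6 in the other CA3 arrays. In the array labelled CbG replicate 3 it was 15.4, against 3379.3 and 1282.9 in the other CbG arrays. *Nrgn*, which encodes the forebrain protein neurogranin, went the other way, at 6450.7 in CbG replicate 3 and 49.2 in CA3 replicate 3. Over the array, CA3 replicate 3 as labelled correlated at r = 0.932 and 0.910 with the other CbG arrays and at 0.866 and 0.850 with the other CA3 arrays, while CbG replicate 3 correlated at 0.858 and 0.844 with CbG and at 0.933 and 0.923 with CA3 (log2 signals across probe sets). Each result is therefore given with the 12 arrays as labelled and with these 2 labels exchanged. Fits without the 2 arrays are given for some results and otherwise only as counts of calls. The exchange was chosen after values of these data had been seen, so it does not settle which label belongs to which array. With the exchange, the summed signal of granule cell markers (6 of 8 on the array) was 21232 to 25513 in CbG and at most 1999 elsewhere, that of CA1 markers (4 of 5) was 21918 to 26570 in CA1 and at most 4990 elsewhere, and that of CA3 markers (4 of 5) was 5489 to 7250 in CA3 and at most 2940 elsewhere. *Gabra6* is itself among the granule cell markers. *Grik4*, also picked to judge the labels, is among the CA3 markers, so these sums are not independent of the exchange. No such separation was seen for CTX, whose deep layer markers (4 of 9) summed to 10388 to 14063 in CTX but reached 17190 in CbG replicate 2. The other CbG arrays under the exchange were at 4907 and 313.5, and every array outside CTX but CbG replicate 2 was at most 7782. *Pcp4* is listed among both the deep layer and the Purkinje cell markers. CbG replicate 2 stood apart in the sum of Purkinje cell markers, at 59508 against 5286 and 24114 in the other CbG arrays under the exchange. It also had the highest 3′ to 5′ ratio of β-actin (6.52 on the log2 scale against 3.85 to 5.35 in the other 11 arrays). A high ratio is a sign of less intact RNA. The same ratio of GAPDH did not set this array apart (2.31, against 2.76 in CTX replicate 2).

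**Figure D1:**
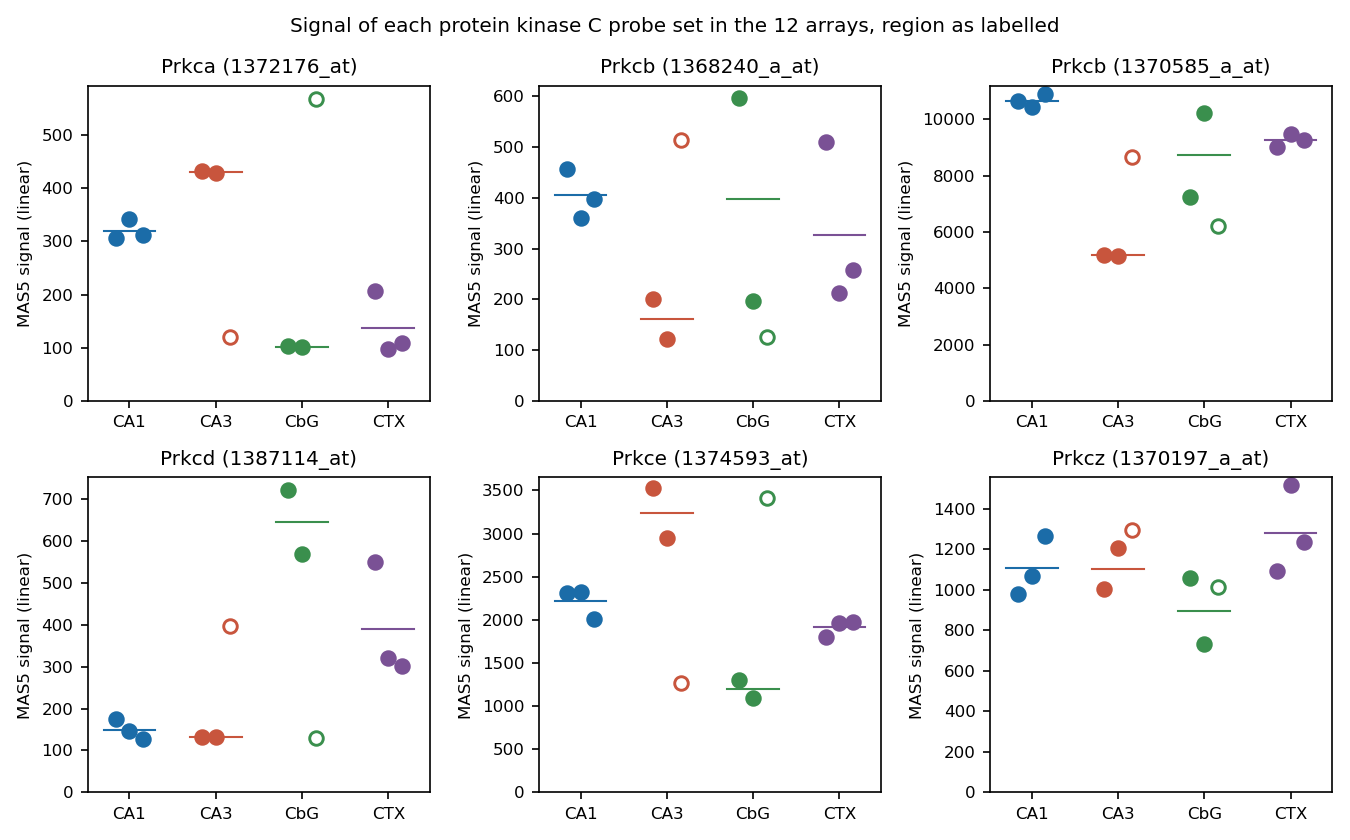
MAS5 signal (linear, from 0) of the 6 PKC probe sets in each of the 12 arrays, by region as labelled; open points mark the third CA3 and the third CbG array, whose labels are in doubt, and lines are means without them. For *Prkca*, *Prkcd* and *Prkce* each open point lies with the filled points of the other region, as *Prkce* at 1270.7 (labelled CA3) and 3417.2 (labelled CbG) shows.

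*Prkca*, which encodes PKC alpha, had signals of 307.3, 341.8 and 312.4 in CA1. In CA3 they were 431.8, 427.9 and, in the array of doubtful label, 120.4. In CbG they were 103.1, 101.5 and, in the array of doubtful label, 568.9. In CTX they were 207.6, 96.8 and 108.7. As labelled, CA1 lay above CTX in all arrays and the ranges of every other pair of regions overlapped. Under the exchange, both hippocampal regions lay above CbG and CTX in every array, with means of 476 ± 80.3 (SD, n = 3) in CA3, 320.5 ± 18.6 in CA1, 138 ± 60.8 in CTX and 108 ± 10.5 in CbG.

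*Prkca* exceeded the array median in 7 arrays, one short of the 8 of 12 required for testing, so that its differences come from fits without that filter over all 15866 probe sets that are not controls. Under the exchange it lay at or below the array median in 3 of 3 CbG and 2 of 3 CTX arrays, and detection above background was not analysed here, so that folds against these regions rest on low signals. As labelled, no difference passed (adjusted p = 0.55 for any difference among the 4 regions, by limma's F test with Benjamini-Hochberg adjustment). Under the exchange the regions differed (adjusted p = 0.0022), as 28.1% of all probe sets did in that fit. *Prkca* was higher in CA3 than in CbG by 2.27 ± 0.30 on the log2 scale (estimate ± SE, 4.82-fold, adjusted p = 0.0015), in a contrast that called 23.1% of probe sets. It was higher in CA3 than in CTX by 2.19 ± 0.30 (adjusted p = 0.0063, 11.8% of probe sets called), and in CA1 than in CbG by 1.70 ± 0.30 (adjusted p = 0.0054, 20.5% called). For CA1 against CTX the difference was 1.62 ± 0.30 (adjusted p = 0.014, 11.3% called), and it lost its call in 4 of the 12 fits that left out 1 array, namely CA1 replicate 2 or 3 or CTX replicate 2 or 3, with adjusted p up to 0.068. CA1 and CA3 did not differ past the threshold (−0.57, 95% interval −1.25 to 0.11), nor did CbG and CTX (−0.082, −0.76 to 0.60).

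*Prkcb*, which encodes PKC beta, is read by a pair of probe sets, whose signals are not comparable in level with each other or with those of other genes. For 1370585_a_at the signals were 10654.1, 10454.1 and 10898.2 in CA1. In CA3 they were 5174.6, 5162.8 and, in the array of doubtful label, 8676.7. In CbG they were 7231.1, 10214.3 and, in the array of doubtful label, 6204.1. In CTX they were 9010.8, 9487.5 and 9259. CA1 lay above each other region in all arrays under either arrangement, and CA3 lay below CTX under either arrangement. Under the exchange the means were 10669 ± 222 in CA1, 9252 ± 238 in CTX, 8707 ± 1492 in CbG and 5514 ± 598 in CA3.

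As labelled, the difference of this probe set between CA1 and CA3 was 0.78 ± 0.26 (log2, ± SE), with an unadjusted p of 0.014 and an adjusted p of 0.24 in limma. Under the exchange it was 0.95 ± 0.18 (1.93-fold, adjusted p = 0.0037), and each of the 12 fits without 1 array kept this call. It was lost without rat 1 (adjusted p = 0.071). Without the signal filter its adjusted p was 0.042, and 2 of the 12 fits without 1 array kept the call (adjusted p up to 0.17). In the unfiltered limma fit without both doubtful arrays, 0 PKC probe sets were called for CA1 minus CA3 (smallest adjusted p = 0.15). CA3 was also lower than CbG by 0.51 ± 0.18 (adjusted p = 0.034), and CA1 was higher than CTX by 0.52 ± 0.18 (adjusted p = 0.040), both under 1.5-fold and so not called. CbG and CTX did not differ past the threshold (0.081, interval −0.31 to 0.48). The difference between CA1 and CA3 exceeded that between CbG and CTX by 0.87 ± 0.26 (adjusted p = 0.028), but this interaction passed in only 5 of the 12 fits that left out 1 array, and without both doubtful arrays its adjusted p was 0.083.

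The other *Prkcb* probe set, 1368240_a_at, is annotated to the same sequence record. Which transcript ends each set reads was not analysed here. It gave 457.5, 361 and 397.5 in CA1. In CA3 it gave 200.9, 121.1 and, in the array of doubtful label, 514.3. In CbG it gave 596.2, 197.5 and, in the array of doubtful label, 125.8. In CTX it gave 510.6, 213.2 and 256.9. As labelled the ranges of all 6 pairs of regions overlapped. Under the exchange CA3 was lowest, at or below the array median in 2 of 3 arrays, at 149 ± 44.8 (SD, n = 3) against 405 ± 48.7 in CA1, 327 ± 161 in CTX and 436 ± 211 in CbG, and its range overlapped with CbG through CbG replicate 2 (197.5), the array with the high Purkinje cell markers.

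Under the exchange, 1368240_a_at was lower in CA3 than in CA1 (1.46 ± 0.27, 2.76-fold, adjusted p = 0.0026) and than in CbG (1.29 ± 0.27 lower, 2.45-fold, adjusted p = 0.0014), and both calls held in each of the 12 fits without 1 array. In the fit without the signal filter, over 15866 probe sets, the first had an adjusted p of 0.056 and was not called, and 2 of the 12 fits without 1 array called it. The second, at an adjusted p of 0.022, was called in 8 of the 12, and lost without CA3 replicate 1 or 3 or CbG replicate 1 or 3 (labels as deposited, adjusted p up to 0.085). The differences with CTX were less firm. CA1 was higher than CTX by 0.73 ± 0.27 (adjusted p = 0.0496) and CA3 lower than CTX by 0.74 ± 0.27 (adjusted p = 0.044), and each of these calls was lost in 6 of the 12 fits. CA1 replicate 3, CA3 replicate 1, CbG replicate 1 and CTX replicate 2 ended both of these calls, CA1 replicate 2 and CTX replicate 3 the first, and CbG replicate 3 and CTX replicate 1 the second, with adjusted p of up to 0.23 and 0.18. For CbG minus CTX (0.55), a call appeared only without CbG replicate 2 (0.89, adjusted p = 0.013). Over the 12 arrays the 2 probe sets of *Prkcb* correlated at r = 0.50 (log2, centred).

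The summed signal of interneuron markers (9 of 9 on the array) was also lower in CA3 than in CA1. Under the exchange their summed signal was 15110 to 17576 in CA1, 6599 to 8064 in CA3, 9755 to 18449 in CbG and 17114 to 22327 in CTX. Of the 7 that passed the filter, 1 was called higher in CA1 than in CA3, near the 13.5% of all probe sets called in either direction. Their median difference was 0.70 on the log2 scale against 0.0041 over all probe sets tested. None was listed at 0. Their part in the *Prkcb* differences was not tested.

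*Prkcd*, which encodes PKC delta, had signals of 175.6, 145.3 and 126.9 in CA1. In CA3 they were 131.8, 131 and, in the array of doubtful label, 396.6. In CbG they were 720.9, 569.2 and, in the array of doubtful label, 129.6. In CTX they were 550.2, 319.7 and 301. The order of the regions was opposite to that of *Prkca*, with CbG and CTX above both hippocampal regions in all arrays under the exchange. The means were then 562 ± 162 (SD, n = 3) in CbG, 390.3 ± 139 in CTX, 149 ± 24.6 in CA1 and 131 ± 1.11 in CA3, and as labelled only CA1 and CTX did not overlap.

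*Prkcd* also lay above the array median in 7 arrays and was tested in the fits without the filter. Under the exchange it lay at or below that median in 2 of 3 CA1 and 3 of 3 CA3 arrays, so that its folds against these regions rest on low signals too. As labelled the 4 regions did not differ past the threshold (adjusted p = 0.59). Under the exchange they did (adjusted p = 0.0014). *Prkcd* was lower in CA3 than in CbG by 1.92 ± 0.21 on the log2 scale (3.78-fold, adjusted p = 0.00065) and lower in CA1 than in CbG by 1.75 ± 0.21 (3.37-fold, adjusted p = 0.00092), calls that held in each of the 12 fits without 1 array. Against CTX it was lower in CA3 by 1.20 ± 0.21 (adjusted p = 0.014) and in CA1 by 1.03 ± 0.21 (adjusted p = 0.021). The first of these was lost in 3 of the 12 fits, without CA3 replicate 1 or 2 or CTX replicate 1, and the second in 6, without any 1 of the CA1 or CTX arrays. Without the 2 doubtful arrays, the adjusted p of both was above 0.05, at 0.062 and 0.052. CbG exceeded CTX by 0.72 ± 0.21 (adjusted p = 0.060).

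Summed markers of astrocytes, oligodendrocytes and endothelial cells were, like *Prkcd*, lower in both hippocampal regions than in CbG and CTX under the exchange. Under the exchange the summed signal of astrocyte markers (9 of 10 on the array) was 13367 to 18055 in CA1 and 11169 to 18307 in CA3, against 22232 to 46341 in CbG and 24886 to 40046 in CTX. Oligodendrocyte markers (9 of 10) summed to 4697 to 7179 in CA1, 10412 to 14237 in CA3, 15089 to 21499 in CbG and 30711 to 47711 in CTX. Unlike *Prkcd*, they were higher in CTX than in CbG. Microglia markers (11 of 11) summed to 1040 to 1849 in CA1, 876 to 2140 in CA3, 1826 to 2400 in CbG and 3321 to 7725 in CTX. Both hippocampal regions thus overlapped with CbG in microglia markers. Endothelial markers (5 of 7) summed to 477 to 944 in CA1, 865 to 1175 in CA3, 1602 to 2607 in CbG and 2346 to 4139 in CTX. Of the tested markers, 5 of 7 for astrocytes and 6 of 6 for oligodendrocytes were called lower in CA1 than in CbG, and 4 of 7 and 2 of 6 in CA3 than in CbG, where 40.6% and 45.5% of all probe sets were called in either direction. Called higher than in CbG were 0, so that these counts hold for either direction. The counts for CA3 lie near that share, and 0 of 2 tested microglia markers were called against CbG. Against CTX, 3 of 7 astrocyte, 6 of 6 oligodendrocyte and 2 of 2 microglia markers were called lower in CA1. In CA3 these counts were 4 of 7, 6 of 6 and 2 of 2. In those contrasts 33.8% and 36.1% of all probe sets were called in either direction. No marker was listed at 0 in any array. Their part in the *Prkcd* differences was not tested.

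*Prkce*, which encodes PKC epsilon, had signals of 2310.4, 2318 and 2011.4 in CA1. In CA3 they were 3528.2, 2947.4 and, in the array of doubtful label, 1270.7. In CbG they were 1308.3, 1095.5 and, in the array of doubtful label, 3417.2. In CTX they were 1803.4, 1963.5 and 1971.4. Under the exchange the 4 regions were fully separated, in the order CA3 (3298 ± 308, SD, n = 3), CA1 (2213 ± 175), CTX (1913 ± 94.8) and CbG (1225 ± 114). As labelled the SD rose to 1172 in CA3 and 1283 in CbG, and only CA1 and CTX did not overlap.

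As labelled, *Prkce* passed in no contrast (adjusted p = 0.98 for VUL minus RES). Under the exchange its difference between CA3 and CbG, 1.57 ± 0.17 on the log2 scale (2.97-fold, adjusted p = 6.1e-06), had the smallest adjusted p among the probe sets of the 5 genes over all contrasts. It was also higher in CA3 than in CTX by 1.11 ± 0.17 (adjusted p = 0.00040) and in CA1 than in CbG by 0.99 ± 0.17 (adjusted p = 0.00034). These 3 calls held in each of the 12 fits without 1 array. Differences between neighbours in the order were smaller. CA1 was lower than CA3 by 0.58 ± 0.17 (adjusted p = 0.036), higher than CTX by 0.52 ± 0.17 (adjusted p = 0.028), and CbG was lower than CTX by 0.46 ± 0.17 (adjusted p = 0.046), all under the 1.5-fold required. The first lay just inside that bound, at 1.499-fold. *Prkce* and *Prkca* correlated at r = 0.90 over the 12 arrays, *Prkce* and *Prkcd* at −0.93 and *Prkca* and *Prkcd* at −0.84, points that share array, rat and region.

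*Prkcz*, which encodes PKC zeta, was the most even member. Its signals were 981.2, 1069.7 and 1265.8 in CA1, and 1002.7, 1204.7 and, in the array of doubtful label, 1294.2 in CA3. In CbG they were 1057.6, 732.6 and, in the array of doubtful label, 1012.8, and in CTX 1091.9, 1514.4 and 1233.5. Under the exchange all 6 pairs of ranges overlapped, and as labelled only CbG and CTX were apart. No difference passed under either arrangement (adjusted p for any region = 0.70 under the exchange), and for VUL minus RES the 95% interval of −0.43 to 0.30 on the log2 scale left out changes of 1.5-fold. The intervals between single regions were wider, as for CA1 minus CbG (0.27, −0.24 to 0.78), and did not leave them out.

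**Figure D2:**
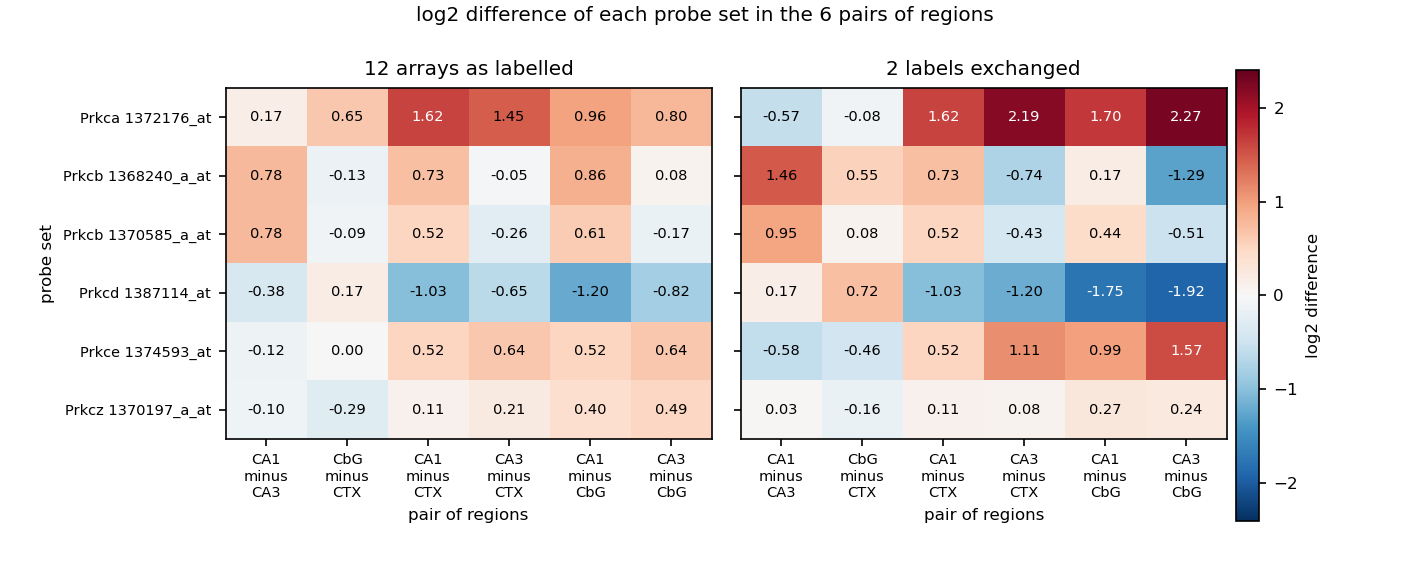
log2 difference of each PKC probe set in the 6 pairs of regions, from the fits without a filter on low signals, with the 12 arrays as labelled (left) and 2 labels exchanged (right); red is higher in the region named first. *Prkca* and *Prkce* (2.27 and 1.57 for CA3 minus CbG) and *Prkcd* (−1.92) take opposite colours in the right panel, and *Prkcb* is lower in CA3.

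Counted over the 4 probe sets that passed the filter (both of *Prkcb*, *Prkce* and *Prkcz*), 0 were called with the arrays as labelled in any of 9 comparisons by limma at an adjusted p under 0.05 and, for single contrasts, 1.5-fold. At an unadjusted p under 0.05 there was 1 in each of CA1 minus CA3, CA1 minus CbG and the difference of the regional differences, and 0 in the other 6. At that unadjusted p, 899, 1499 and 1298 of all 7520 probe sets passed in these comparisons, in that order. In the other 6 comparisons 330 to 2017 did. The shares that follow are for calls at the adjusted threshold. Of all 7520 probe sets tested, 0% were called for VUL minus RES, 1.33% for CA1 minus CA3, 0.625% for CbG minus CTX, 6.38% for CA1 minus CTX, 1.93% for CA3 minus CTX, 1.24% for CA1 minus CbG, 0% for CA3 minus CbG, 2.07% for the difference of the regional differences and 3.24% for any difference among regions. These shares are low, and 0 of 4 lies near each of them.

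Under the exchange 3 of the 4 probe sets differed among regions, close to the 67.6% of all probe sets that did. The counts were 2 of 4 for CA1 minus CA3 (13.5% of all), 0 for CbG minus CTX (33.9%), 1 for CA1 minus CTX (33.8%), 2 for CA3 minus CTX (36.1%), 1 for CA1 minus CbG (40.6%), 2 for CA3 minus CbG (45.5%) and 1 for the difference of the regional differences (24.1%). The share for CA1 minus CA3 is the one furthest above its background, but both of its calls are probe sets of 1 gene, *Prkcb*. Without the 2 doubtful arrays the counts were the same except that CA3 minus CTX fell to 1 and the difference of the regional differences to 0. The shares of all probe sets called were not counted for those fits.

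For the contrast that the study was built on, VUL minus RES, the members split. Under the exchange *Prkcb* 1368240_a_at was higher in VUL neurons (lowest 197.5, median 427.5, highest 596.2) than in RES neurons (121.1, 207.05, 510.6) by 1.01 ± 0.19 on the log2 scale (2.01-fold, adjusted p = 0.0016). Of the 4 tested probe sets of the 5 genes it alone was called, where 18.4% of all probe sets were called, 10.1% higher in VUL and 8.3% higher in RES. It was higher in VUL in 6 of 6 within-rat pairs (exact permutation of regions within rats, two-sided p = 0.0093, the smallest that the 216 arrangements allow), on centred values. In signals before centring, 5 of 6 pairs were higher in VUL, the pair of CbG replicate 2 and CTX replicate 2 being the exception. Each of the 12 fits without 1 array called it. Without the signal filter its adjusted p was 0.032, but only 1 of the 12 such fits called it, that without CbG replicate 2 (adjusted p up to 0.085), and it was not called without both doubtful arrays (adjusted p = 0.11). This probe set is on a list that the study selected from these arrays, so its direction here is not independent evidence. Across the 12 filtered fits without 1 array, its CA1 minus CA3 difference was 1.28 to 1.66 and called in each. Its CbG minus CTX difference was 0.22 to 0.89 and not called in the full fit, so the call does not show a difference in both pairs of regions. The *Prkcb* probe set 1370585_a_at was also higher in VUL, by 0.51 ± 0.13, 1.43-fold and not called (adjusted p = 0.0091, higher in 5 of 6 pairs after centring and 4 of 6 before, exact permutation p = 0.028).

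*Prkce* was lower in VUL (1095.5, 1659.85, 2318 for lowest, median and highest) than in RES neurons (1803.4, 2459.4, 3528.2) by 0.52 ± 0.12 under the exchange. The adjusted p was 0.0053, but at 1.44-fold it was not called, and the exact permutation within rats gave p = 0.19 although 0 of 6 pairs were higher in VUL. The gene stands in pathway lists of the study, which were also drawn from these arrays. *Prkcd* was 0.45 ± 0.15 higher in VUL (adjusted p = 0.11 without the filter, where 8.62% of probe sets were called, exact permutation p = 0.40), and *Prkca* 0.33 ± 0.21 lower (adjusted p = 0.39, exact permutation p = 0.64). For these 2 genes VUL and RES each join a region of high and a region of low signal, which the mean over both regions hides. *Prkcz* differed by −0.065 ± 0.17 (adjusted p = 0.80, exact permutation p = 0.81). As labelled the exact permutation p ranged from 0.16 to 0.90 over the 6 probe sets. A paired test modelled on the study's methods, with 1.5-fold, passed 0 of 6 as labelled. Under the exchange it passed 1 of 6, *Prkcb* 1368240_a_at. The pairs of regions were chosen here, since the paper does not state them, and its filter on detection calls was not applied. How many of all probe sets pass this test was not counted, so these counts have no background to be read against. The limma p-values rest on the spread left among arrays once region and replicate number were fitted, moderated over the probe sets tested. The exact permutation moves region labels within replicate numbers and measures no spread among animals. All rest on only 3 replicates per region.

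**Figure D3:**
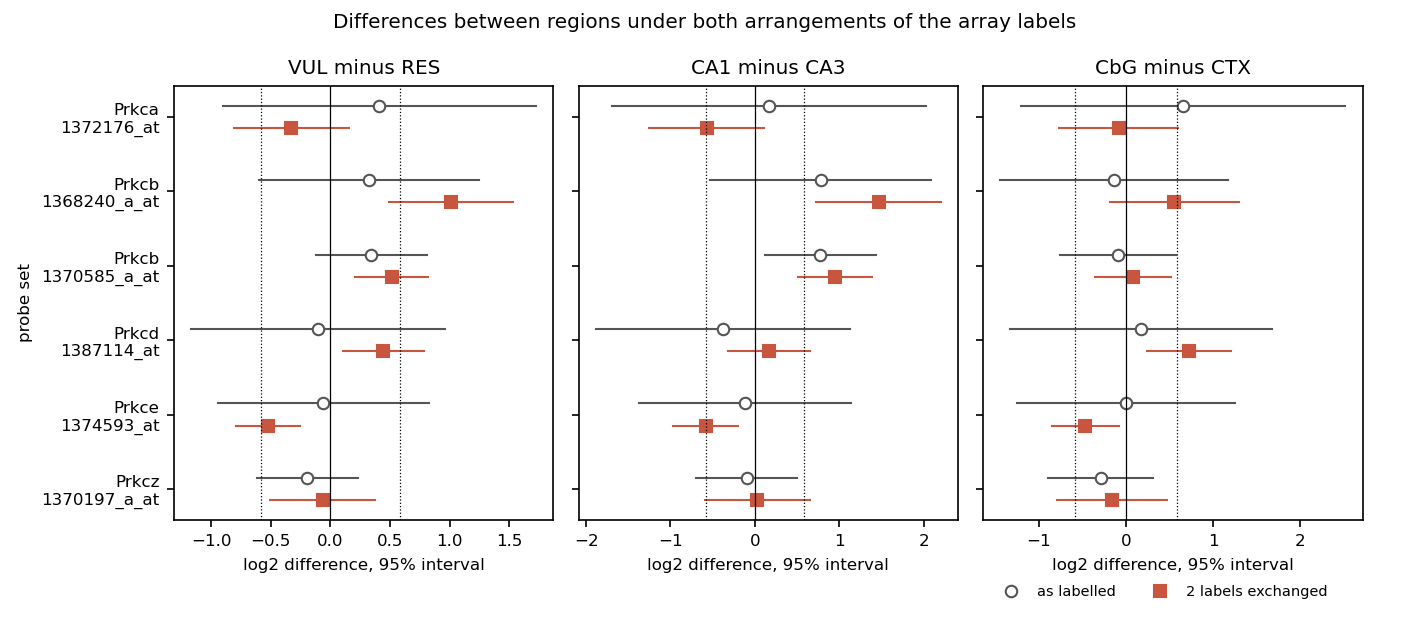
log2 difference (points) with 95% intervals (lines) of the 6 PKC probe sets for VUL minus RES, CA1 minus CA3 and CbG minus CTX, from the fits without a filter, as labelled (open circles) and with 2 labels exchanged (filled squares); dotted lines mark 1.5-fold. The *Prkcb* squares lie above 0 for CA1 minus CA3 (1.46 and 0.95), and those of *Prkcz* lie near 0 in all 3 panels.

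The rest of the PKC family was sparse on this array. Of 10 other family genes listed, 7 had a probe set and 4 passed the filter. Of these 4, 1 was called for VUL minus RES under the exchange, where 18.4% of all probe sets were called. That gene was *Prkcq*, PKC theta, a calcium-independent isoform, with signals of 829.2, 987.2 and 818.6 in CTX and of 93.1 to 474.8 in the other 9 arrays. It was lower in VUL by 0.87 ± 0.17 (log2, adjusted p = 0.0022) and, in CA1 against CTX, was lower by 2.70 ± 0.24 (adjusted p = 5.3e-06). The latter was called as labelled too (adjusted p = 0.012). *Prkci*, the other atypical isoform (0.071 ± 0.15), and the PKC-related kinase *Pkn2* (0.17 ± 0.18) did not pass for VUL minus RES. Both probe sets of *Prkch*, PKC eta, lay below the array median in every array.

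Upstream of PKC, 4 of 15 Gq proteins, receptors and their regulators passed the filter, and under the exchange 3 were called lower in VUL and 0 higher, where 8.3% of all probe sets were called lower and 10.1% higher. These were the serotonin receptor *Htr2c* (−1.92 ± 0.24 on the log2 scale, adjusted p = 7.5e-05), *Rgs4*, which turns off Gq signals (−1.38 ± 0.15, adjusted p = 2.6e-05), and the muscarinic receptor *Chrm3* (−0.78 ± 0.16, adjusted p = 0.0026). *Rgs4* reached 4458 to 6492 in CTX and at most 756.4 elsewhere. The median over the 4 was −1.08, against 0.081 over all probe sets tested. Under the exchange, 0 of the 4 were called for CA1 minus CA3 (median −0.024, 13.5% of all probe sets called in either direction). For CbG minus CTX, 3 were called lower (median −2.23, 33.9% called in either direction). The calls for VUL minus RES thus do not show a difference in both pairs of regions. *Chrm3* was at most 108.3 in CbG and at least 240.2 elsewhere. Of the phospholipase C genes, 3 of 12 were tested and 0 called (adjusted p = 0.033 for *Plcg1* and 0.044 for *Plcd1*, both under 1.5-fold, and 0.11 for *Plcb1*), with a median of −0.35.

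Among 7 tested genes that remove diacylglycerol, 1 was called under the exchange, near the 18.4% of all probe sets called for VUL minus RES. It was the diacylglycerol kinase *Dgkg*, higher in VUL by 0.75 ± 0.17 (adjusted p = 0.0046), and the median over the list was 0.23. *Dgkg* was low in CTX (282.9 to 417.5), while its ranges in CA1 (1399.3 to 1829.8) and CA3 (1624.4 to 1834.3) overlapped. *Dgkb* (−0.58 ± 0.14, adjusted p = 0.0061) stayed under 1.5-fold, and *Dgkh* gave −0.81 ± 0.46 (adjusted p = 0.19). Of 5 tested genes of IP3 receptors and calcium release, 2 were called higher, the phosphatase *Inpp5a* (1.24 ± 0.20, adjusted p = 0.00045) and the IP3 receptor *Itpr1* (0.75 ± 0.24, adjusted p = 0.030), and 1 lower, the ryanodine receptor *Ryr2* (−0.78 ± 0.15, adjusted p = 0.0014), which was named after its value was seen. Over all probe sets, 10.1% were called higher and 8.3% lower. *Itpr1* was highest in CbG replicate 2 (8932), and *Inpp5a* too (1879), the array in which Purkinje cell markers, *Itpr1* among them, stood apart. The part of those cells was not tested. *Itpka*, an IP3 kinase, had signals of 5338 to 5752 in CA1 and at most 1905 elsewhere, and gave −0.12 ± 0.33 for VUL minus RES (adjusted p = 0.82).

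Of 12 tested PKC substrates, 3 were called lower and 1 higher in VUL under the exchange, against 8.3% and 10.1% of all probe sets. Those lower were *Nrgn*, the neurogranin that also served to judge the labels and so is no independent result (−3.28 ± 0.21), *Basp1*, a membrane protein of nerve endings (−1.81 ± 0.28, adjusted p = 0.00043), and *Gap43*, a growth cone protein (−0.59 ± 0.13, adjusted p = 0.0040), which was named after its value was seen. The scaffold *Akap12* was higher (0.72 ± 0.16, adjusted p = 0.0050), with 2621 to 3580 in CbG under the exchange and at most 629.9 in the other regions. Of 10 tested anchors and regulators of PKC, 0 were called, with a median of −0.041. At an adjusted p under 0.05, *Fez1*, a PKC zeta binding protein, gave 0.48 ± 0.15 (adjusted p = 0.030), while *Akap5* (−0.37 ± 0.16, adjusted p = 0.090) and *Fez2* (−0.11 ± 0.13, adjusted p = 0.55) did not pass. Of the other diacylglycerol receptors 1 of 9 was tested, *Chn1*, which encodes chimaerin 1, and it was lower in VUL (−1.87 ± 0.23, adjusted p = 5.9e-05), with at most 879.7 in CbG and at least 4969 in the other regions. As labelled, 0 genes of these 8 lists were called for VUL minus RES, as 0 were over the whole array. Under the exchange, *Htr2c*, *Nrgn*, *Basp1* and *Chn1* were low in CbG, where markers of forebrain neurons (5 of 6 on the array) summed to 1273 to 1510 against 8360 to 24677 in the other regions. *Nrgn* is itself among these markers and served to judge the labels, so the sum is not independent of it or of the exchange.

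**Figure D4:**
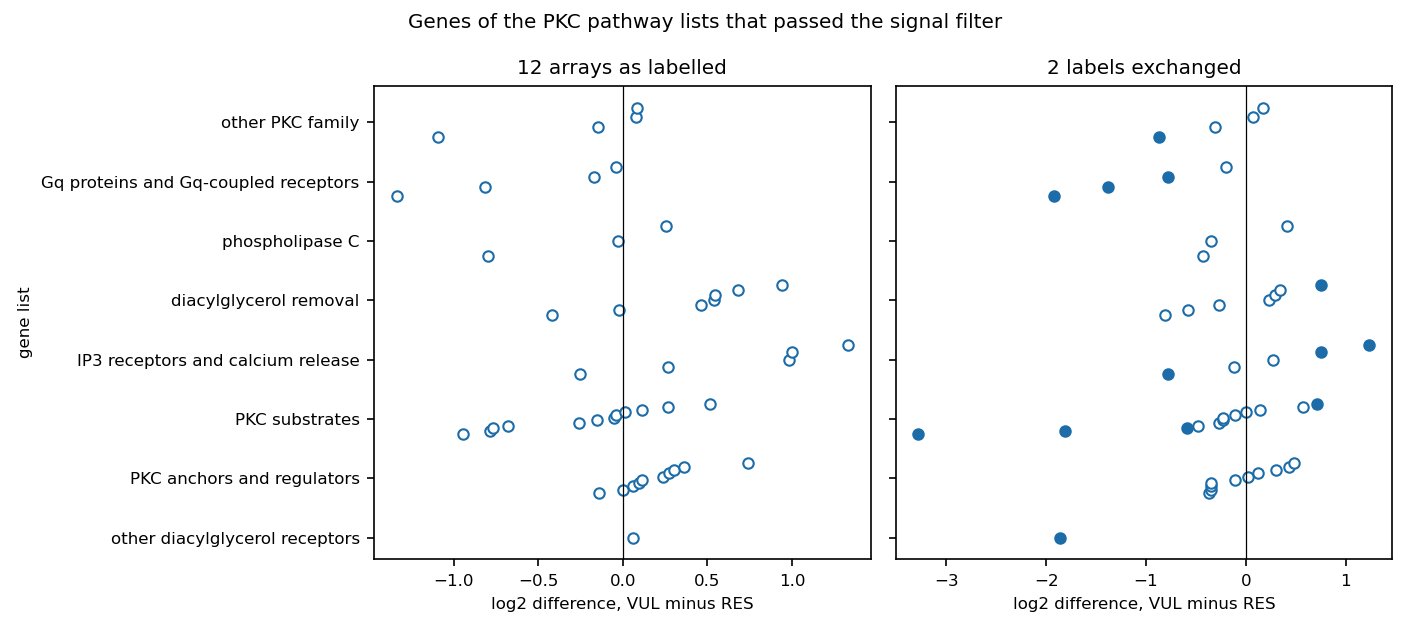
log2 difference for VUL minus RES of each gene of the 8 PKC pathway lists that passed the filter, as labelled (left) and with 2 labels exchanged (right, on a wider axis); filled points were called. The right panel holds 13 filled points and the left 0, and the lowest is *Nrgn* at −3.28.

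Over the 12 arrays, and independent of their labels, each member was set against 6307 probe sets of other genes with a single symbol. Those most like *Prkce* were the potassium channel subunit *Kcng2* (r = 0.983), the adhesion protein *Opcml* (0.981) and the calcium channel subunit *Cacna2d3* (0.976), and those most like *Prkca* were *Ercc3* (0.970), *Ociad1* (0.964) and *Rab18* (0.964). *Cacna2d3* reached 6338.8 to 8359.1 in CA3 under the exchange, and 489.6 to 2840 in the other regions. For *Prkcd* they were *Numb* (0.934), *Ctnna1* (0.933) and *Akap7* (0.931), a kinase anchor that lay between 3133.9 and 3492.8 in CbG under the exchange and between 221.7 and 356 in CA1 and CA3. For *Prkcb* 1370585_a_at they were *Ttc9* (0.943), *Lzts3* (0.915) and the clock factor *Dbp* (0.907), and *Ttc9*, like it, was highest in CA1 (1015.2 to 1274.7) and lowest in CA3 (125.7 to 226 under the exchange). For *Prkcz* they were *Supt5h* (0.912), *Fbxw5* (0.861) and *Sidt2* (0.860). The points of these correlations share arrays, rats and regions, and with 6307 candidates each is the upper end of a long ranking.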

How the data were processed

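RNA of captured neurons was amplified in a two-cycle labelling and hybridized to 12 RAE230A arrays. The authors deposited signals, linear MAS5 intensities scaled per array (the submitters' processing notes name MAS5); the MAS5 version is not given in the sources used here. Array medians lay between 145.5 and 199.3, and the small number of arrays limits precision. Probe sets were named from the platform's gene table (12783 with 1 symbol, 312 with several, 2771 not listed). The 57 controls were left out. From log2 signals the median of each array was subtracted. limma 3.58.1 (R 4.3.3) then estimated 4 regional means with replicate number as blocking factor (the replicate block), on the reading that equal numbers stand for 1 rat. Deviations of same-numbered arrays from their region means correlated at a mean r of −0.061 as labelled and 0.086 exchanged. Tests covered the 7520 probe sets that exceeded the 50th percentile in 8 or more of the 12 arrays. Exact permutations and figures used Python 3.11.15, scipy 1.17.1 and matplotlib 3.10.9. Fits were tested on simulated data. Motifs were searched in the 250 bases before each start.

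Members, lists and tests were chosen with earlier results of these data known. Named besides members are the 3 probe sets most correlated with each member's strongest probe set, up to 3 genes per pathway list by size of the VUL minus RES difference, and 3 markers for the labels. Lists of other cell types were summed per array. Other settings tried were fits without centring, after quantile normalization, after adding 50 or with a floor of 50 before log2, under other filters, without the block, with a trend and robust prior, other tests, leaving out each array or rat, and leaving out or exchanging the 2 doubtful labels.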

Additional observations from a re-analysis of the deposited data

Results flagged for a closer look

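Once the 2 doubtful labels were exchanged, the difference of *Prkcb* 1370585_a_at between CA1 and CA3 exceeded that between CbG and CTX by 0.867 on the log2 scale (SE 0.26, limma's adjusted p = 0.028). What drew attention is that the 2 regional differences of this gene were unequal by a test of the difference itself, with CA1 at 10669 ± 222 (SD, n = 3) against CA3 at 5514 ± 598, and CbG at 8707 ± 1492 against CTX at 9252 ± 238. As labelled the same value was 0.867, with an adjusted p of 0.27, because the exchange leaves this contrast of means as it was and changes only the spread.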

How the results depend on the processing

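With the arrays as labelled, 0 of the tested probe sets of the 5 genes were called in any of 9 comparisons, and each of 8 alternatives of normalization, scale, filter, prior and replicate block also gave 0. The counts moved when arrays were relabelled or left out. CbG minus CTX had 0 in the settings given next, but 1 when, under the exchange, CbG replicate 2 or rat 2 was also left out. Under the exchange without rat 1, CA1 minus CA3 fell to 1. For VUL minus RES, CA1 minus CA3, CA1 minus CTX, CA3 minus CTX, CA1 minus CbG, CA3 minus CbG, the difference of regional differences and any region, in that order, exchanging 2 labels gave 1, 2, 1, 2, 1, 2, 1 and 3 calls of 4, and leaving out both arrays 1, 2, 1, 1, 1, 2, 0 and 3. Exchanged without the replicate block there were 1, 2, 0, 1, 1, 2, 1 and 3, so that the call for CA1 minus CTX held only with the block. Without the filter, 6 probe sets were tested, and 1, 1, 2, 3, 3, 4, 0 and 5 were called under the exchange and 0, 0, 1, 1, 3, 3, 0 and 3 without both arrays. Of all probe sets in the unfiltered exchanged fit, 8.62% were called for VUL minus RES, 11.3% for CA1 minus CTX and 11.8% for CA3 minus CTX. For CA1 minus CbG, CA3 minus CbG and any region the shares were 20.5%, 23.1% and 28.1%. Shares for its remaining comparisons, and for fits without arrays or the block, were not counted. Leaving out 1 array or rat at a time, as labelled, gave from 0 to 1, 2, 0, 1, 1, 2, 0 and 3. These calls came without rat 3, which removes both doubtful arrays, and 1 call of CA1 minus CbG also came without CbG replicate 3.

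Values that changed direction were not called as labelled. CbG minus CTX for *Prkcb* 1368240_a_at was −0.13 as labelled, 0.55 exchanged, 0.25 without both arrays and −0.60 to 0.45 over fits leaving out an array or rat. For *Prkcb* 1370585_a_at these values were −0.090, 0.081, 0.040 and −0.34 to 0.11. For *Prkce* they were 0.0021, −0.46, −0.56 and −0.71 to 0.38, with −0.21 after quantile normalization, −0.17 without centring and −0.026 after adding 50. VUL minus RES and CA1 minus CA3 of *Prkce* ranged from −0.55 to 0.21 and from −0.76 to 0.25 when an array or rat was left out. For *Prkcz*, VUL minus RES, CA1 minus CA3 and CbG minus CTX ranged from −0.31 to 0.013, from −0.20 to 0.013 and from −0.44 to 0.012, and CA1 minus CA3 was 0.030 exchanged. VUL minus RES of *Prkca* turned from 0.41 to −0.33 and that of *Prkcd* from −0.10 to 0.45. The cause of these changes was not tested. *Prkca* in CbG and CTX, *Prkcd* in CA1 and CA3 and *Prkcb* 1368240_a_at in CA3 lay near or below the array medians, and detection above background was not analysed here.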
